A study of Homo sapiens with 3 samples.

Results

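Skipped exons of centrosome and centromere genes were followed in BJ cells, an established human fibroblast line from foreskin, during reprogramming towards pluripotency. Members were all rows of both exon-skipping tables whose gene symbol starts with CEP and a digit or with CENP and a letter, plus the Aurora kinase genes AURKA and AURKB and the satellite gene PCM1. The rule uses names only, and it found 148 of 39434 listed exons, in 37 genes. The RS2 table held 142 member events (119 exons of 36 genes) out of 40702 events. The RS3 table held 156 member events (130 exons of 37 genes) out of 42518.

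All 3 libraries came from BJ cells in which viral OSKM (OCT4, SOX2, KLF4 and MYC, which drive reprogramming) had been induced 8 days earlier. They differed in the siRNA: 1 library had a non-targeting siRNA and is labelled WT, 1 had SMAD3 siRNA and 1 had SFRS11 siRNA (current symbol SRSF11, a splicing factor). In the deposited tables, the library coded RS2 and that coded RS3 are each set against 1 and the same library, called the comparator here. No label ties these codes to a siRNA, so no result below is assigned to a knockdown. With 1 library a group there are no replicates, and each deposited p-value compares a pair of libraries and not a pair of conditions. Of 10 fibroblast marker genes 9 had an exon listed in each table, against 3 and 4 of 8 epithelial and 2 and 3 of 8 pluripotency markers in RS2 and RS3, which shows only that an exon of them was tested.

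The centrosome is the main microtubule-organizing centre of animal cells. A pair of centrioles lies in a pericentriolar matrix, is copied once in each cell cycle, and can dock at the membrane as the base of a cilium. The centromere is the chromosome region marked by the histone variant CENP-A, on which the constitutive centromere network and then the outer kinetochore assemble to catch spindle microtubules. Aurora A acts at centrosomes and spindle poles, and Aurora B is the kinase of the chromosomal passenger complex, which corrects wrong attachments and is needed for cytokinesis. Many of these genes are used mostly by dividing cells.

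All differences are in inclusion level, the portion of a gene's transcripts across an exon that retain it. The level of the comparator was subtracted from that of RS2 or RS3, so a difference runs from -1 to 1. Calls required a deposited FDR below 0.05 together with a difference of 0.1 or more in either direction. Read depth is unknown, so no interval is given for any single difference. Positions are hg19, counted from 1.

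The exon sequences on which the results turn are shown first. They were read from GENCODE release 29 transcripts, in which 147 of the 148 member exons were found by gene and length. The AURKB exon on chromosome 17 (minus strand) is listed in 2 forms that share their 3′ end, chr17:8113495-8113567 and chr17:8113495-8113543. It is shown because it held the only called member events. Capitals mark an annotated start codon. Both forms hold 48 coding bases from it on, and the longer form has 24 more bases ahead of it:
AURKB, 73 bases: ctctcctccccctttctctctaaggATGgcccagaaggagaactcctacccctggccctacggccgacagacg
AURKB, 49 bases: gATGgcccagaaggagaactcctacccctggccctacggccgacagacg

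The next set holds coding exons with a length that is a multiple of 3, so that the frame is the same with and without them. They are among the member exons with the smallest p-values or the largest differences. Capitals mark the last 3 bases, the exon side of the 5′ splice site. The CEP164 exons lie on the plus strand at chr11:117253512-117253658 and chr11:117234145-117234222, the CENPA exon at chr2:27015624-27015701 and the CEP78 exon at chr9:80880775-80880822, also on the plus strand:
CEP164, 147 bases: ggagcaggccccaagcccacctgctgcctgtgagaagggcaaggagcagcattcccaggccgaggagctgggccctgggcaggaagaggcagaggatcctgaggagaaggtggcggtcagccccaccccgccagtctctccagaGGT
CEP164, 78 bases: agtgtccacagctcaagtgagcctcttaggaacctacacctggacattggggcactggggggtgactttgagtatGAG
CENPA, 78 bases: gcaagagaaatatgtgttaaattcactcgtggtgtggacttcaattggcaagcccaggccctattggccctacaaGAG
CEP78, 48 bases: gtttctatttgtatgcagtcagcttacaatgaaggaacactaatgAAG

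Few member exons passed the test. No member event was called in RS2, where 0.0712% of all events were. In RS3 both forms of the AURKB exon were called with lower inclusion, 2 of 156 member events (1.28%), against 0.967% of all events called and 0.736% called with lower inclusion. By genes this is 1 of 37 members (2.70%) against 3.06% of all genes in RS3, so the members' share lay near the background. With no adjustment, 12 RS2 member events (8.45%) and 15 RS3 member events (9.62%) had a p-value under 0.05, against 4.52% and 7.61% of all events. Of the member events, 9 were lower and 3 higher in RS2, and 9 were lower and 6 higher in RS3. Over all events with such a p-value, 1016 were lower and 823 higher in RS2, and 2211 were lower and 1026 higher in RS3. AURKA, AURKB and CENPE, grouped by their role in mitosis, gave 4 of the 12 and 7 of the 15 member events. CEP events had shares of 6.33% in RS2 and 5.56% in RS3, and CENP events 6.98% and 4.76%. In RS3 both thus lay below the share of all events. Over single-row exons, members had 5.83% and 10.5%, against 4.02% and 6.82% of all such events.

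**Figure D1:**
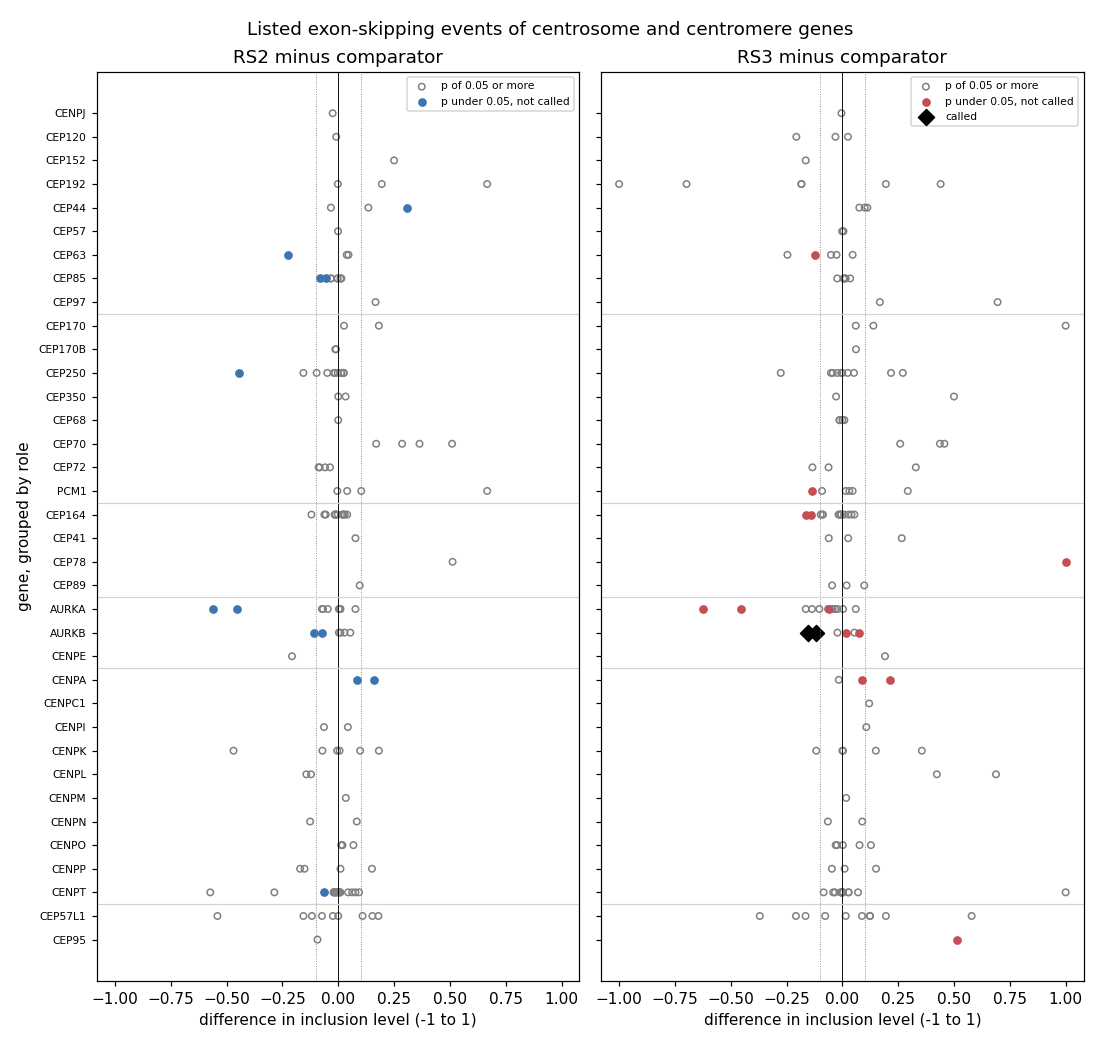
Difference in inclusion level (x axis, RS2 or RS3 minus the comparator) of the listed member events of 36 of the 37 genes, 1 point per event, by gene (y axis) with lines between roles. Grey rings have a p-value of 0.05 or more, filled points are under it, black diamonds are called and dotted lines mark 0.1 in each direction. The only diamonds are those of AURKB in RS3, and most points past the dotted lines are rings.

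Member differences past 0.1 made up a larger share than over all events in both tables, which was not tested. In RS2, 39 of 142 member events (27.5%) differed by 0.1 or more, 20 higher and 19 lower, against 19.2% of all RS2 events. The corresponding count in RS3 was 58 of 156 (37.2%), 34 higher and 24 lower, against 21.2% of all RS3 events. Over all events past 0.1, 3960 were higher and 3874 lower in RS2, and 3765 were higher and 5231 lower in RS3. A p-value of 0.05 or more was listed for 32 of the 39 and 47 of the 58 member events past 0.1, and for 6933 of 7834 and 7303 of 8996 such events over all genes, so large differences without a small p-value were the usual case in both tables. The members' median difference was near 0 in both tables, -0.0005 in RS2 and 0.002 in RS3 (all events 0 and -0.001), while their median absolute difference was 0.0415 and 0.061 against 0.018 and 0.02. Several rows of 1 exon count separately here: over the exons in a single row, 25 of 103 RS2 events (24.3%) and 35 of 114 RS3 events (30.7%) were past 0.1, against 18.4% and 20.5% of all single-row events.

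**Figure D2:**
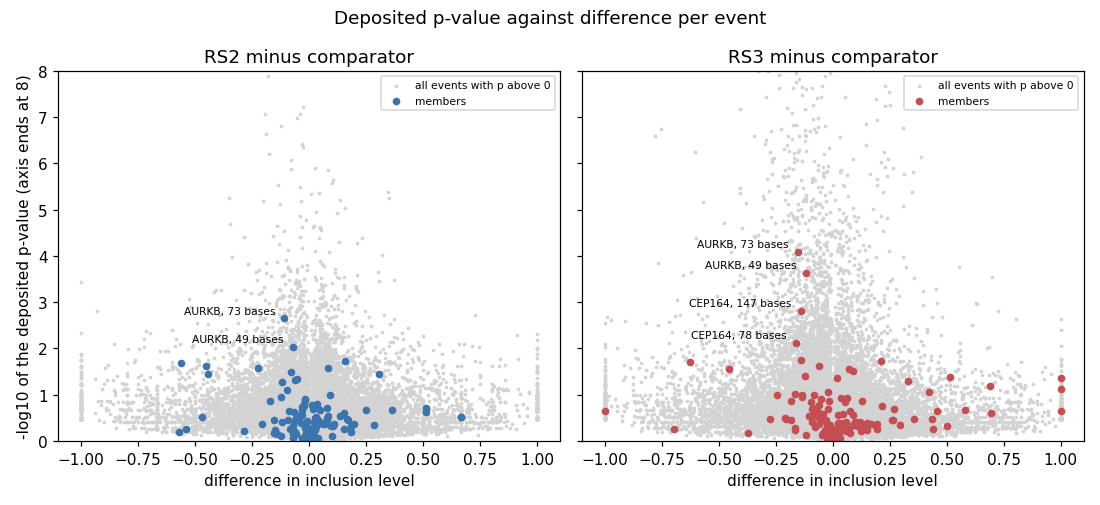
Deposited p-value as -log10 (y axis, ending at 8) against the difference in inclusion level (x axis), with all events in grey and members in colour, 1 panel per table. Members with a p-value under 0.01 are named; these are the 2 AURKB forms in RS2, and in RS3 the 2 AURKB forms and 2 CEP164 exons. Members with the widest differences lie low in both panels.

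Among the mitotic kinases, inclusion of the AURKB (ENSG00000178999) exon shown above was lower in RS3. The authors' deposited table had -0.153 for the 73-base form (p = 8.24e-05, FDR 0.00838) and -0.117 for the 49-base form (p = 0.000231, FDR 0.0188). The authors' deposited table for RS2 had -0.109 (p = 0.00225, FDR 0.376) and -0.073 (p = 0.00923, FDR 0.729) for these forms. The RS2 values point the same way and were not called. The forms share the end of the exon and so share reads, and both tables share the comparator, so these 4 values are not separate pieces of evidence.

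The other 4 listed AURKB exons lay closer to 0. In the authors' deposited table the 102-base exon next to it differed by 0.010 in RS2 and 0.017 (p = 0.0443, FDR 0.623) in RS3, and the 103-base exon by 0.054 in both. The 103-base exon also holds a start codon, in an annotated transcript where it is exon 2 of 8. A coding exon near the middle of the gene, listed in a 185-base and a 139-base form, had 0.028 and 0.003 in RS2 and 0.073 (p = 0.028, FDR 0.503) and -0.022 in RS3 in the authors' deposited table. Lower inclusion past 0.1 was thus listed for 1 AURKB exon, in its 2 forms, and for no other.

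AURKA (ENSG00000087586, chromosome 20, minus strand) had its lowest values in the 5′ untranslated part. A 98-base exon (chr20:54963743-54963840), annotated as exon 2 of 10, had RS2 rows of -0.561 (p = 0.0209, FDR 0.930) and 0.006 in the authors' deposited table. Its RS3 rows in the authors' deposited table were -0.625 (p = 0.0194, FDR 0.408), -0.164 and -0.136. A 110-base exon that is exon 2 of 10 in other transcripts (chr20:54965612-54965721) had -0.453 (p = 0.0238) in RS2, with 4 further rows between -0.073 and 0.077, in the authors' deposited table. In RS3 it had -0.455 (p = 0.0285) and 5 further rows between -0.103 and 0.060 in the authors' deposited table. One row of each exon was thus below -0.4 in both tables, which share the comparator and so are not separate pieces of evidence. The other rows of the 98-base exon were past 0.1 in RS3 and not in RS2, and those of the 110-base exon were within 0.1 of 0 apart from the RS3 row of -0.103. The flanking exons that tell such rows apart were not used here.

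The listed coding exons of AURKA showed little. Its 149-base exon differed by 0.010 in RS2 and -0.022 in RS3, and its 55-base exon by 0.003 in both, in the authors' deposited table. A 195-base untranslated exon had 0.008 in RS2 and -0.062 (p = 0.0235, FDR 0.454) for RS3 in the authors' deposited table. CENPE, a kinesin that carries chromosomes along spindle microtubules, had 1 listed exon of 159 bases, with -0.207 (p = 0.436) in RS2 and 0.191 (p = 0.484) in RS3 in the authors' deposited table.

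**Figure D3:**
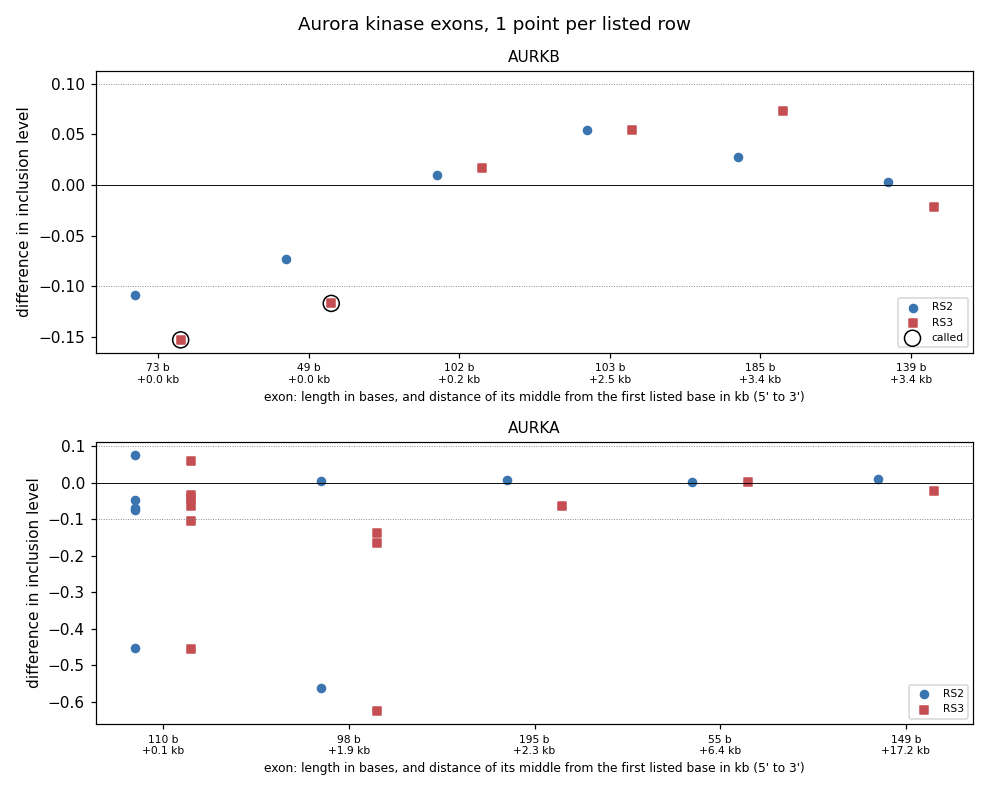
Differences in inclusion level (y axis) of each listed AURKB and AURKA exon, from the 5′ to the 3′ end of the gene (x axis, with exon length and distance from the first listed base), 1 point per row, RS2 as circles and RS3 as squares. The ringed AURKB forms at -0.153 and -0.117 are the called events. AURKA has single rows at -0.453 and -0.561 in RS2 and at -0.455 and -0.625 in RS3, beside rows nearer 0.

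At the centromere, CENPA had positive differences in both tables for the exon shown above. CENPA (ENSG00000115163, chromosome 2) encodes the histone variant that marks the centromere. In the authors' deposited table its 78-base exon had 0.084 (p = 0.0262, FDR 0.973) in RS2 and 0.088 (p = 0.0305, FDR 0.525) in RS3. A 332-base form with the same 3′ end and 254 more bases had 0.158 (p = 0.0188, FDR 0.907) and 0.214 (p = 0.0187, FDR 0.399) in the authors' deposited table. The 332-base form was found only in transcripts not annotated as protein-coding. The forms share the end of the exon, and both tables share the comparator, so these values are not separate pieces of evidence. No CENPA event was called. Another exon, of 82 bases, listed in RS3 only, had -0.016 in the authors' deposited table.

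CENPT, whose product links centromeric chromatin to the outer kinetochore, had the most listed exons of the centromere genes, 17 in RS2 and 16 in RS3. Many of these are overlapping forms, such as those of 86, 105 and 132 bases, and so share reads. Most CENPT exons were near 0, with a median difference of -0.005 in RS2 and -0.001 in RS3. The authors' deposited table had -0.064 (p = 0.0492) in RS2 and -0.084 (p = 0.104) in RS3 for its 351-base exon. Its extreme rows, -0.573 (p = 0.642) in RS2 and 1 (p = 0.225) in RS3 in the authors' deposited table, belong to different exons of 121 and 87 bases. The 121-base exon had other RS2 rows at 0.003 and 0.062 in the authors' deposited table.

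The other genes of the inner centromere had few listed exons and no p-value under 0.05. CENPK ranged from -0.469 (p = 0.311) to 0.182 in RS2 and from -0.117 to 0.356 (p = 0.333) in RS3 in the authors' deposited table. CENPL had 2 overlapping forms of 1 exon, with -0.122 and -0.143 in RS2 and 0.423 (p = 0.0858) and 0.688 (p = 0.0642) in RS3 in the authors' deposited table. CENPP, CENPO, CENPN, CENPM and CENPI lay between -0.171 and 0.151 over both tables. CENPC1 (current symbol CENPC), the protein that bridges CENP-A nucleosomes and the kinetochore, was listed in RS3 only, at 0.120 (p = 0.387) in the authors' deposited table. Over this group, 3 of 41 RS2 events (7.32%) and 2 of 40 RS3 events (5.0%) had a p-value under 0.05. The shares over all events were 4.52% and 7.61%. The events of this group were the 2 overlapping CENPA forms in each table and the RS2 event of CENPT.

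At the base of the cilium, CEP164 had the lowest p-values after AURKB in RS3. CEP164 (ENSG00000110274, chromosome 11) is a distal appendage protein by which the mother centriole docks at the membrane. In the authors' deposited table its 147-base exon had -0.056 (p = 0.321) in RS2 and -0.141 (p = 0.00156, FDR 0.0805) in RS3. Its 78-base exon had -0.120 (p = 0.0541) in RS2 and -0.163 (p = 0.00758, FDR 0.240) for RS3 in the authors' deposited table. Neither passed the FDR threshold. They are exons 14 and 8 of 33 in the annotation.

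**Figure D4:**
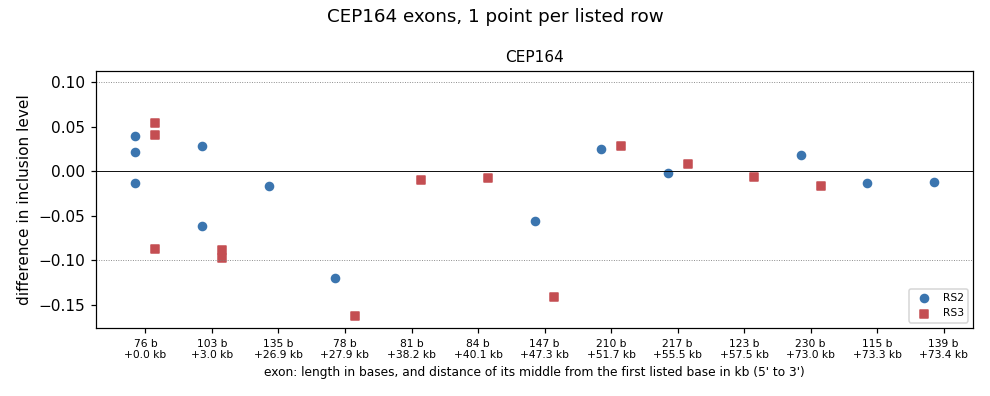
Differences in inclusion level (y axis) for the CEP164 exons from the 5′ to the 3′ end (x axis, with exon length and distance from the first listed base), 1 point per row, RS2 as circles and RS3 as squares. The 78-base and 147-base exons are the lowest of the gene in RS3, at -0.163 and -0.141, and the exons between and after them lie within 0.03 of 0.

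The remaining CEP164 exons in RS3 lay between -0.097 and 0.054 in the authors' deposited table. The 103-base exon with the start codon had RS3 rows of -0.097 and -0.089 and RS2 rows of -0.062 and 0.029 in the authors' deposited table. Downstream, the exons of 210 and 217 bases had 0.028 and 0.008 for RS3 in the authors' deposited table. Lower inclusion past 0.1 was thus listed in CEP164 for the 147-base and 78-base exons and for no other.

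CEP78, a ciliary base protein, had 1 listed exon, that of 48 bases shown above. The authors' deposited table gave 0.512 (p = 0.239) in RS2 and 1 (p = 0.0429, FDR 0.615) in RS3. A difference of 1 means that the exon was kept in all informative reads of one library and in none of the other, and the p-value is large for a difference of that size. CEP89, a distal appendage protein, had 0.096 in RS2, and from -0.046 to 0.098 in RS3, in the authors' deposited table. CEP41 had 0.077 in RS2, and from -0.061 to 0.266 (p = 0.351) for RS3, in the authors' deposited table.

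The centriole duplication genes had a p-value under 0.05 in 4 of 23 RS2 events (17.4%) and 1 of 29 RS3 events (3.45%), and none was called. Over all events the shares were 4.52% and 7.61%, so RS2 lay above and RS3 below the background. CEP63, which recruits CEP152 to the centriole wall to start duplication, had 3 of the listed exons. Its 69-base exon, shown here because it also holds the annotated start codon (capitals; chr3:134214138-134214206, plus strand), had 0.046 in RS2 and RS3 rows of -0.122 (p = 0.039, FDR 0.589), -0.051 and 0.046 in the authors' deposited table:
CEP63, 69 bases: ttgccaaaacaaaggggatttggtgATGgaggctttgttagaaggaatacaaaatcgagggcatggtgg

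A 72-base untranslated exon of CEP63 had -0.226 (p = 0.0271, FDR 0.977) in RS2 and -0.026 (p = 0.883) for RS3 in the authors' deposited table. The 138-base coding exon had 0.038 and -0.246 (p = 0.0997) in the authors' deposited table. No CEP63 exon was thus past 0.1 in both tables. CEP152, the partner of CEP63, had 1 exon of 168 bases at 0.250 (p = 0.217) in RS2 and -0.164 (p = 0.525) in RS3 in the authors' deposited table.

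CEP85 had 7 exons listed in RS2 and 6 in RS3, all within 0.08 of 0. Its 153-base exon 3 had RS2 rows of -0.080 (p = 0.0321) and 0.012, and 0.010 for RS3, in the authors' deposited table. The neighbouring 77-base exon with the start codon had RS2 rows of -0.054 (p = 0.0457) and -0.004, and 0.035 in RS3, in the authors' deposited table. CEP44 had 1 untranslated exon of 97 bases, with RS2 rows of 0.306 (p = 0.0354), 0.135 and -0.033 and RS3 rows of 0.112, 0.1 and 0.076 in the authors' deposited table.

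CEP192, a scaffold that recruits mitotic and duplication kinases to the centrosome, had the widest range. In the authors' deposited table its 3 RS2 exons lay between -0.002 and 0.667, and its 6 RS3 exons between -1 and 0.440, all with p-values of 0.140 or more. CEP97, a cap protein that limits centriole growth, had a 102-base coding exon at 0.167 and 0.168 and a longer 124-base form, listed in RS3 only, at 0.695 (p = 0.254), in the authors' deposited table. CEP57 and CENPJ, a centriole length factor despite its CENP symbol, stayed within 0.025 of 0. CEP120, which acts in centriole elongation, had -0.009 in RS2 and from -0.206 (p = 0.342) to 0.025 in RS3 in the authors' deposited table.

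Of the linker, matrix and satellite genes, CEP250 in RS2 and PCM1 in RS3 each had 1 event with a p-value under 0.05, out of 30 and 32 events of the group. These shares, 3.33% and 3.12%, were below the 4.52% and 7.61% of all events. CEP250, or C-Nap1, ties the centrioles of a pair together. Its 71-base exon (chr20:34046125-34046195) had RS2 rows of -0.446 (p = 0.0366) and -0.156 and RS3 rows of 0.218, 0.271 and -0.276 in the authors' deposited table, so its sign differed between rows. Its other exons were within 0.1 of 0 in both tables. PCM1 is the scaffold of centriolar satellites, the granules that carry proteins to the centrosome. Its 68-base untranslated exon (chromosome 8) had -0.004 (p = 0.927) in RS2 and -0.137 (p = 0.0174, FDR 0.386) for RS3 in the authors' deposited table.

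The other PCM1 exons had larger p-values. The 165-base coding exon had 0.667 (p = 0.305) in RS2 and 0.293 (p = 0.446) in RS3, and the 117-base coding exon 0.103 and 0.031, in the authors' deposited table. The 141-base coding exon had 0.040 and 0.046 in the authors' deposited table. The exons of 118 bases, with the start codon, and of 153 bases were listed in RS3 only, at -0.091 (p = 0.393) and 0.015 in the authors' deposited table.

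CEP70 had positive differences in every row of both tables. Its 181-base exon had 0.364 (p = 0.219) and 0.457 (p = 0.225), and its start-codon exon, listed in 3 forms in RS2 and 2 in RS3, lay between 0.170 and 0.510 in RS2 and at 0.259 and 0.437 in RS3, in the authors' deposited table. None of these rows had a p-value under 0.05. The forms of the start-codon exon share an end and so share reads, and both tables share the comparator. The CEP70 values are thus not separate pieces of evidence. CEP170 had 0.182 and 0.139 for a 150-base coding exon, and 1 (p = 0.0755) for a 117-base exon listed in RS3 only, in the authors' deposited table. CEP72 had RS2 values from -0.088 to -0.037 and RS3 values from -0.134 to 0.329 (p = 0.0505), and CEP68, also a linker protein, was within 0.013 of 0 in both, in the authors' deposited table. CEP350 had 0.033 and 0.000 in RS2 and -0.028 and 0.500 (p = 0.486) in RS3, and CEP170B lay between -0.013 and 0.061, in the authors' deposited table.

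The symbols CEP57L1 and CEP95 fell outside the roles used. CEP57L1 had 9 RS2 rows between -0.541 and 0.180 and 10 RS3 rows between -0.370 and 0.579, with no p-value under 0.2, and 4 of its exons in each table stood in several rows, some of both signs. CEP95 had 1 exon of 91 bases, with -0.093 (p = 0.360) in RS2 and 0.513 (p = 0.0415, FDR 0.604) for RS3 in the authors' deposited table.

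Exons that stood in a single row of each table were set side by side, matched by gene and position. The flanking exons were not used here, so the paired rows may have different ones. There were 84 such exons. Of these, 21 were past 0.1 in RS2, 27 in RS3 and 17 in both, and 38 were within 0.05 of 0 in both. Among the 17, 4 had opposite signs: the exons of CENPE and CEP152 and the 2 forms of the CENPL exon. The tables share the comparator, so these counts give no measure of likeness, and RS2 was not tested against RS3.

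The member exons were then described by their annotation. Of the exons found in GENCODE, 82 were coding throughout in the transcript used, 19 were partly coding and held a start codon, 17 were untranslated in a protein-coding transcript and 29 occurred only in transcripts of other types. Lengths were multiples of 3 for 67 of 148 member exons (45.3%) against 41.1% of all listed exons, and the median length was 126.5 bases against 120. Among the 82 coding exons, 43 had such a length. Short exons, of 51 bases or fewer, were 6.08% of member exons and 6.31% of all.

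Differences past 0.1 were then counted by annotation. They made up 12 of 33 RS2 events (36.4%) and 17 of 34 RS3 events (50.0%) of untranslated exons, and 7 of 23 (30.4%) and 11 of 25 (44.0%) of partly coding ones. Exons coding throughout had 16 of 67 (23.9%) and 19 of 70 (27.1%). Exons found only in transcripts of other types had 3 of 18 (16.7%) in RS2, below the coding exons, and 10 of 26 (38.5%) in RS3, above them. The called AURKB exon is partly coding, and the low rows of AURKA belong to untranslated exons. Rows are not independent here, since the 17 untranslated exons gave 33 RS2 rows. AURKA alone gave 5 of the 17 untranslated RS3 events past 0.1, and CEP57L1 gave several of the others. The share by class was not taken over all events, and the difference between the classes was not tested.

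**Figure D5:**
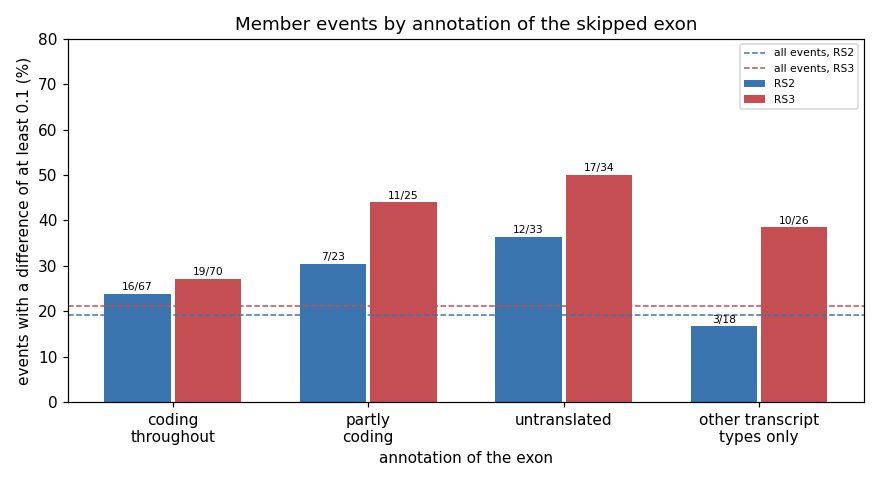
Share of member events with an absolute difference of at least 0.1 (y axis, percent) by annotation of the skipped exon (x axis), RS2 in blue and RS3 in red, with counts above the bars and the share over all events as dashed lines (19.2% and 21.2%). Untranslated exons have the highest bars, 36.4% and 50.0%, and exons coding throughout have 23.9% and 27.1%.

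Other centrosome and kinetochore genes, from a list of 82 symbols outside the naming rule, gave 2 called events in RS3 and none in RS2. Of the list, 62 genes were in the RS2 table and 66 in the RS3 table. The called share in RS3 was 2 of 250 events (0.8%), below the 0.967% of all events. Both were exons with lower inclusion. Unadjusted p-values under 0.05 were listed for 9 of 237 RS2 events (2 higher, 7 lower) and 13 of 250 RS3 events (7 higher, 6 lower). These shares, 3.8% and 5.2%, were below the 4.52% and 7.61% of all events, among which the lower events outnumbered the higher in both tables.

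The called exons were in BIRC5 and SKA3, and their sequences are printed for that reason. BIRC5, survivin, is the subunit that brings the passenger complex with Aurora B to the centromere, and SKA3 belongs to a complex that holds kinetochores on microtubule ends. The BIRC5 exon is at chr17:76212745-76212862 on the plus strand and the SKA3 exon at chr13:21746759-21746820 on the minus strand. Both are coding throughout, neither length is a multiple of 3, and capitals again mark the last 3 bases:
BIRC5, 118 bases: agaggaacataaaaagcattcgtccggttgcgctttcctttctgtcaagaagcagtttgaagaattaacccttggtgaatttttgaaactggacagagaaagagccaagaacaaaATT
SKA3, 62 bases: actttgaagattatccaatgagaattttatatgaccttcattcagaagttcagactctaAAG

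In RS3 the SKA3 exon had -0.447 (p = 5.51e-05, FDR 0.00611) in the authors' deposited table. The same exon differed by -0.002 (p = 0.969) in the authors' deposited table for RS2, where 2 other SKA3 exons, not listed in RS3, had -0.571 (p = 0.131) and 1 (p = 0.224). The BIRC5 exon had RS3 rows of -0.142 (p = 5.64e-05, FDR 0.00621) and -0.009 (p = 0.534), of which the first was called, in the authors' deposited table. Its RS2 rows were -0.039 (p = 0.209) and 0.009 in the authors' deposited table. Neither exon had an RS2 row with a p-value under 0.05, though the difference between the tables was not tested.

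The other passenger subunits were not called. INCENP, the scaffold that activates Aurora B, had a 12-base exon at 0.104 (p = 0.329) in RS2 and 0.143 (p = 0.186) in RS3 in the authors' deposited table. CDCA8, borealin, had 3 exons between -0.011 and 0.004 over both tables. Among the smallest p-values of the list was that of MAD1L1, a spindle checkpoint gene, whose 141-base exon at chr7:2265045-2265185 had -0.069 (p = 0.000589, FDR 0.170) in RS2 and -0.071 (p = 0.000411, FDR 0.0288) for RS3 in the authors' deposited table. That exon met the FDR threshold in RS3 and not the minimum difference. HAUS7, an augmin subunit, had 0.111 (p = 0.0133) and 0.109 (p = 0.0062, FDR 0.211) for a 177-base exon, in the authors' deposited table. STRA13 (current symbol CENPX), a centromere gene under an older name, had RS2 rows of -0.047 (p = 0.00877) and 0.008 for a 52-base exon in the authors' deposited table. The RS3 rows of that exon were -0.029 (p = 0.0754) and 0.008 in the authors' deposited table. A 54-base exon of STRA13 had positive differences in both, 0.112 (p = 0.0281, FDR 0.983) for RS2 and 0.128 (p = 0.0115, FDR 0.303) for RS3 in the authors' deposited table.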

How the data were processed

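Extraction was with Trizol, followed by DNase, mRNA selection and TruSeq preparation, per the labels' protocols. STAR, FastQC and the build hg19 are listed, with no versions, in the submitters' processing notes. The splicing caller is not named there. For each skipped exon the authors deposited the p-value with its FDR and the inclusion difference, per the file headers. No value from the 4 columns of inclusion level per library is given, since no label ties them to a sample. They were viewed a single time, in no script, to settle that the comparator is subtracted. The direction of each difference given here rests on that view.

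Members were found by symbol in Python 3.11.15 with pandas 2.3.3. Only the Benjamini-Hochberg adjustment and the call rule were checked on simulated data. Adjusting the deposited p-values anew by Benjamini-Hochberg left each event on its side of the FDR threshold. Several rows were listed for 16 member exons of either comparison. All 37 member gene identifiers were in the name table, and 36 symbols were current. Exons were matched to GENCODE release 29 (GRCh38) by gene and length (118 exons) or also by distance to another listed exon (29), and no coordinate was taken from that build.

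The members, lists and tests were chosen with earlier results of these data known. Genes were named if called, if among the 10 smallest p-values or the 10 largest differences of a table, or if AURKA, AURKB or PCM1. From the further list, genes were named if called or among its 3 smallest p-values. INCENP and CDCA8 met neither condition and were added as the other passenger subunits. Other members are given by value to complete each role. The values of 1 member gene are not reported here, though its events stay in the counts.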

Additional observations from a re-analysis of the deposited data

How the results depend on the processing

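The count of 0 called member events in RS2 was the same under all 7 alternatives tried. Most of these are stricter or use fewer rows, so they could not raise a count of 0. With no minimum difference the count could have risen, and the lowest RS2 member FDR was 0.376. In RS3 the 2 called AURKB events remained with no minimum difference, with an own Benjamini-Hochberg adjustment and with 1 row per exon. These settings could not remove them. A lower minimum keeps every call, and the own adjustment moved no event across the threshold. The row kept per exon was that with the smallest p-value, and each AURKB form had a single row. The 2 AURKB calls became 1 event with an FDR under 0.01. They became 0 with a minimum difference of 0.2, with both stricter thresholds together, or without AURKA, AURKB and PCM1. Events past 0.1 numbered 39 in RS2 and 58 in RS3, and with a minimum of 0.2 they numbered 17 and 29, a smaller count by construction. Over single-row exons only, the counts were 25 of 103 and 35 of 114. With 1 row per exon, or without AURKA, AURKB and PCM1, these counts were 34 in RS2 under both, and 47 and 49 in RS3. No paired analysis was possible because each group has 1 library. Read depth is unknown, so the precision of a difference, also of one near 1, is not known.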
